A study of Mus musculus with 4 samples.

Results

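The 9 genes described here encode the mouse Polycomb repressive complex PRC2 and its histone-binding chaperones: Ezh1, Ezh2, Eed, Suz12, Rbbp4, Rbbp7, Jarid2, Mtf2 and Phf19. They were picked by gene symbol, with earlier results of these data known. Each symbol matched 1 of the 56691 genes in the count data. The study sequenced poly(A) RNA from Ter119+ cells of mouse bone marrow; Ter119 is a surface antigen of the erythroid lineage. It set Med16 KO cells against Med16 fl/fl cells, which carry the loxP-flanked allele of Med16, a subunit of Mediator, the coactivator that bridges DNA-bound regulators and the polymerase. Each genotype has 2 libraries, and all 4 carry the time label 3 weeks. The labels used here do not state what that time is counted from, the strain and age of the mice, or what deleted Med16 (a Cre driver or an inducing agent). Nothing in the labels says that the 2 libraries of a genotype came from separate mice, so p-values reflect only how far these libraries differ, and that spread may be technical.

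PRC2 places methyl groups on H3K27, a chromatin mark of silenced genes. EZH2 or its paralog EZH1 is the catalytic subunit, EED reads the mark and stimulates the enzyme, SUZ12 is the scaffold, and RBBP4 or RBBP7 holds the histone; MTF2, PHF19 and JARID2 are accessory subunits that help bring the complex to CpG-rich DNA. RBBP4 and RBBP7 also serve in NuRD, SIN3, CAF-1 and other complexes. In textbook accounts EZH2 dominates in dividing progenitors and EZH1 in resting and mature cells, and a shift from EZH2 to EZH1 has been described during erythroid maturation, which makes the ratio of the 2 transcripts a natural readout in Ter119+ cells.

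The libraries held 6749200 to 7216330 counts assigned to genes. Counts of Med16 itself were 164 and 127 in fl/fl and 16 and 30 in KO, a log2 fold change of -2.64 (SE 0.34, adjusted p = 4.6e-05 in the quasi-likelihood test of edgeR with the Benjamini-Hochberg method), so Med16 was low in both libraries with the genotype label Med16 KO, and some Med16 reads remained. The titles of these 2 libraries abbreviate the genotype as DK, which the labels do not explain; the genotype label was followed. Of 13052 genes tested, 18.4% were called at an adjusted p under 0.05, 8.5% higher and 9.89% lower in KO. The tissue label was checked against marker genes: 14 of 14 erythroid markers were measured, and their summed level was 187591 to 198625 CPM (counts per 1000000, scaled by TMM factors) over the 4 libraries, with 3 called higher and 10 lower. Early progenitor markers summed to 162 and 166 CPM in fl/fl and 186 and 228 in KO, with 2 of 9 tested called higher and 0 lower. Neutrophil markers summed to 14353 and 14525 CPM in fl/fl against 20260 and 20645 in KO, with 13 of 15 called higher and 0 lower. Megakaryocyte and platelet markers summed to 99.6 and 113 CPM in fl/fl and 244 and 249 in KO, with 10 of 11 tested called higher and 0 lower; Gp1bb was at 0 in all libraries. Their part in the results on PRC2 was not tested. These are bulk samples, so fewer cells of a type and less RNA per cell cannot be told apart.

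All 9 members passed the filter on low counts. The core genes Ezh1, Ezh2, Eed, Suz12 and Rbbp4 fell in KO, by 13.8% (Suz12) to 28.8% (Eed). Phf19 rose 2.04-fold from a low level, and Rbbp7, Jarid2 and Mtf2 did not pass the test. Thus 6 of 9 were called, where 18.4% of all tested genes were, and 5 of 9 were called lower, where 9.89% were. Of the 8 members with a mean of at least 30 CPM, 5 were called, all lower, beside 37.3% called and 21.8% called lower of the 4948 tested genes at that level. The members called lower numbered 2 with an offset for GC content, 2 without fl/fl replicate 1 and 1 without fl/fl replicate 2. The CPM of the 2 genotypes did not overlap for 8 of the 9, with KO below in 6 and above in 2, whereas 57.6% of all tested genes did not overlap. The median log2 fold change of the members was -0.21, against 0.02 for all genes tested; with an offset for GC content it was -0.035, against 0.0043. Summed over the members, the level was 1124 and 1145 CPM in fl/fl and 952 and 949 in KO. Without TMM scaling it was 1103 and 1123 counts per 1000000 assigned in fl/fl and 978 and 958 in KO. Rbbp4, which also serves in other complexes, was the largest part of the sum, at a mean of 405 CPM in fl/fl and 313 in KO.

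**Figure D1:**
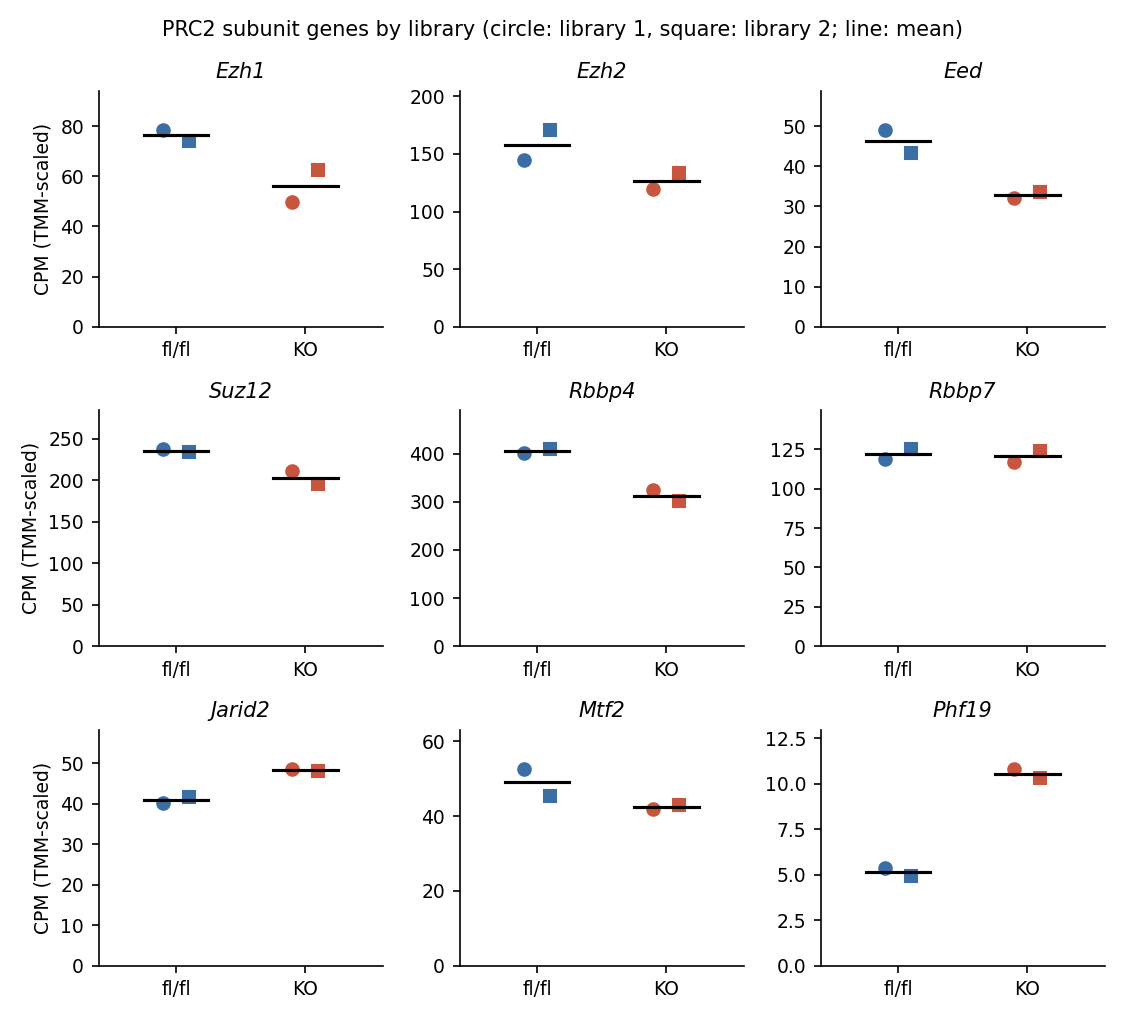
TMM-scaled CPM of the 9 genes in each library (y axis from 0; circle, library 1; square, library 2; line, mean of the 2 libraries of a genotype). Only Rbbp7 overlaps between genotypes; Jarid2 and Phf19 lie higher in both KO libraries and the other 6 genes lower.

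Promoter sequences are shown for 3 of the genes because they set a catalytic subunit that fell beside the 2 paralogous histone chaperones, of which Rbbp4 fell. They come from RefSeq (GRCm38.p6, a build other than the GRCm39 of the counts), where all 9 genes matched, with 11 windows of 250 bases before and 50 after a start. Capitals mark matches to the searched motifs on either strand, namely an E2F site (TTTGGCGC or TTTCGCGC), its core (TTGGCGC or TTCGCGC), the CCAAT box (CCAAT), the GC box (GGGCGG) and the NRF1 motif. The Ezh2 stretch is chr6:47595015-47595044 (minus strand) and spans its start, the Rbbp4 stretch is chr4:129335371-129335530 (minus strand) and the Rbbp7 stretch is chrX:162760212-162760371 (plus strand), the last 2 ending at the base before the start.
Ezh2: gcgATTGGgttgctgcgTTTGGCGCtcggt
Rbbp4: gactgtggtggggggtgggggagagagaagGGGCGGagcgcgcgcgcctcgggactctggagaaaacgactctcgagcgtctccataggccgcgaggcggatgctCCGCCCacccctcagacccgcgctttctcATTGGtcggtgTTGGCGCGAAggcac
Rbbp7: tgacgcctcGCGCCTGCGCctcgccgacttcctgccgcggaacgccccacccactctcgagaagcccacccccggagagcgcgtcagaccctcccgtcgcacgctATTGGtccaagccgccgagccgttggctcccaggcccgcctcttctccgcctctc
The E2F site was in 0.813% of all 32851 RefSeq windows and in 1 of the 11 member windows, that of Ezh2, 4 bases past the start. Of the 250 bases before that RefSeq start, 125 lie in annotated Ezh2 exon in GENCODE M21 (GRCm38). For Eed all 250 lie in annotated exons, and for Phf19 61 do. The core alone, a pattern chosen after these sequences were read and contained in the longer site, was in 3.89% of all windows and in those of Ezh2 and Rbbp4, where copies on opposite strands overlap. CCAAT was in 37.4% of all windows and 8 of the 11, the GC box in 35.7% and 7, and the NRF1 motif in 4.6% and 3 (Ezh1, Ezh2 and Rbbp7). The CHR element (TTTGAA or TTCGAA) was in 19.2% and 3; the GATA motif (AGATAA or TGATAA) was in 18.6% of all windows and the ETS motif (CCGGAAG) in 8.86%, and both were in 0 of the 11. Member windows held 17 to 41 CpG, apart from 1 of the 2 Mtf2 windows with 2, against a median of 7 over all windows. The shares over all windows were not matched for CpG content, and its part in the motif counts was not tested. The windows of Ezh1, Eed and Suz12, which also fell, held no E2F core. Outside its printed stretch the Rbbp7 window held GC boxes at -210, -185, 11 and 39 bases from the start, and an NRF1 motif at 19. A CCAAT match that begins at the last printed base of Rbbp7 is not in capitals. These matches describe letters only.

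Of the catalytic subunits, Ezh1 had 78.6 and 74.1 CPM in fl/fl and 49.7 and 62.4 in KO. Both KO libraries were below both fl/fl libraries, and KO library 1 was the lowest. The log2 fold change was -0.45 (SE 0.13, 95% interval -0.72 to -0.17), with an adjusted p of 0.0232 in the edgeR quasi-likelihood test with Benjamini-Hochberg adjustment. Ezh2, the more abundant methyltransferase, had 144 and 171 CPM in fl/fl and 120 and 133 in KO. The groups did not overlap, though the gap between them was smaller than that between the 2 fl/fl libraries. Its log2 fold change was -0.32 (SE 0.09, 95% interval -0.52 to -0.12, edgeR adjusted p = 0.0283). The Ezh1 call ended without fl/fl replicate 1 (edgeR adjusted p = 0.195) or fl/fl replicate 2 (0.0892), and the Ezh2 call ended without fl/fl replicate 2 (0.510), with library sizes alone (0.0609) and with an offset for GC content (log2 fold change -0.20, edgeR adjusted p = 0.178).

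The ratio of Ezh1 to Ezh2 counts was 0.544 and 0.433 in fl/fl and 0.415 and 0.469 in KO. The genotypes overlapped, with KO library 2 between the 2 fl/fl libraries. The mean was 0.489 ± 0.0783 (SD, n = 2) in fl/fl and 0.442 ± 0.0375 (SD, n = 2) in KO, a difference of -0.14 in log2 ratio (exact two-sided permutation p = 0.667, where 0.333 is the smallest p that 2 against 2 libraries allow). The 2 fold changes differed by -0.13 (SE 0.16, which treats the 2 genes as independent). The difference in log2 ratio was smaller than its pooled SD between libraries of a genotype, 0.186. A shift of this size is thus not resolved in either direction. Without fl/fl replicate 1 the difference in log2 ratio was 0.026. Ezh1 made up 35.2% (Wilson 95% interval 32.9 to 37.6%) and 30.2% (28.1 to 32.5%) of the counts of the pair in fl/fl, and 29.4% (26.9 to 32.0%) and 31.9% (29.5 to 34.5%) in KO. These intervals cover counting error only. Per kb of merged exon length the ratio was 0.488, 0.389, 0.373 and 0.421, so on a length-corrected scale Ezh2 was the higher in all 4 libraries.

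**Figure D2:**
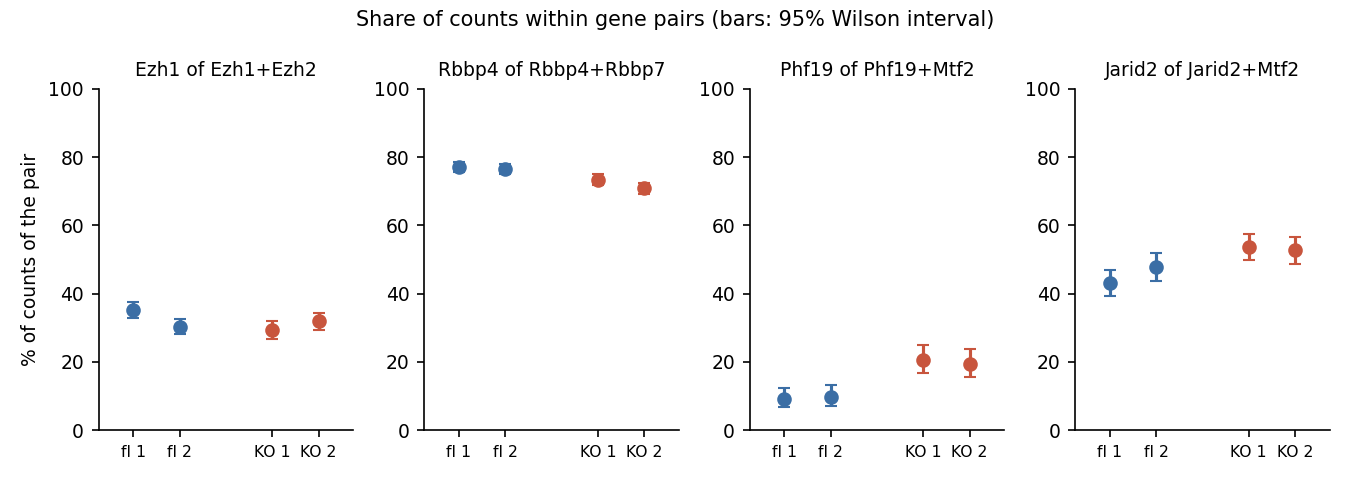
Share of the counts of a gene pair that came from the first-named gene in each library (y axis, percent; bars, Wilson 95% interval for counting error). The Ezh1 share overlaps between genotypes, the Rbbp4 share is lower in both KO libraries, and the Phf19 and Jarid2 shares of their pairs with Mtf2 are higher in both.

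The remaining core subunits, Eed and Suz12, were called lower as well. Eed, the reader of the mark, had 49.1 and 43.4 CPM in fl/fl and 32.2 and 33.7 in KO, with both KO libraries below. Its log2 fold change was -0.49 (SE 0.15, 95% interval -0.81 to -0.17, edgeR adjusted p = 0.0350), and the call ended in 6 of 13 alternative analyses, among them leaving out either fl/fl library. Eed shares 6.82% of its exon length with the antisense gene E230029C05Rik in GENCODE M21, and that gene had 56 and 69 counts in fl/fl and 29 and 28 in KO (log2 fold change -1.13, edgeR adjusted p = 0.0487). The sources used here do not state the strand setting of the counting, so reads of such a pair cannot be told apart. Suz12, the scaffold, had 237 and 234 CPM in fl/fl and 211 and 195 in KO; both KO libraries were lower. The log2 fold change was -0.21 (SE 0.07, 95% interval -0.36 to -0.07, edgeR adjusted p = 0.0422), but with a GC content offset it was -0.035 (edgeR adjusted p = 0.800), and the call ended in 7 of 13 alternatives, among them without KO replicate 2 (0.0577) and without either fl/fl library. By GC content of the longest transcript, Suz12 (41.6%) was lower than every other member except Mtf2 (38.2%). Suz12 and Ezh2 overlap the antisense genes Gm26563 (3.6% of exon length) and Gm26625 (2.61%), whose symbols are not in the count data.

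Of the paralogous histone chaperones, Rbbp4 was called lower and Rbbp7 was not. Rbbp4 had 401 and 409 CPM in fl/fl and 324 and 302.0 in KO, with the 2 groups far apart relative to the gap within each. The log2 fold change was -0.37 (SE 0.06, 95% interval -0.50 to -0.25, edgeR adjusted p = 0.000266), the smallest p among the members. Its call held without each library in turn and under every other scaling, test, filter and offset tried; it ended only at an assumed coefficient of variation of 0.2. Rbbp7 had 119 and 125 CPM in fl/fl and 117 and 124 in KO, so the genotypes overlapped almost fully. The log2 fold change was -0.02 (SE 0.09, edgeR adjusted p = 0.932), and its 95% interval of -0.20 to 0.17 does not reach the Rbbp4 value. The Rbbp4 to Rbbp7 count ratio was 3.38 and 3.27 in fl/fl and 2.76 and 2.44 in KO, lower in both KO libraries. The difference in log2 ratio was -0.36, with an exact two-sided permutation p of 0.333, the smallest possible; adjusted by Benjamini-Hochberg over this ratio and that of Ezh1 to Ezh2, p was 0.667. The 2 fold changes differed by -0.36 (SE 0.10). Per kb of merged exons the ratio went from 1.13 and 1.09 in fl/fl to 0.919 and 0.811 in KO, passing through 1, but with the longest transcript of each gene (a length chosen after seeing the data) it was 1.63, 1.57, 1.33 and 1.17. Rbbp4 overlaps Sync and Gm26722 on the antisense strand (8.94% and 9.10% of its exon length) and Rbbp7 overlaps Txlng (5.98%); Sync had 29 to 57 counts per library and Txlng 95 to 117.

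The accessory subunits did not share a direction. Phf19, a Polycomb-like protein with a Tudor domain, had 38 and 34 counts in fl/fl and 77 and 70 in KO, that is 5.38 and 4.93 CPM against 10.8 and 10.3. Both KO libraries were higher, and the exact Poisson 95% intervals of fl/fl (3.81 to 7.38 and 3.41 to 6.89 CPM) lay below those of KO (8.53 to 13.5 and 8.03 to 13.01), which cover counting error only. The log2 fold change was 1.03 (SE 0.33, 95% interval 0.32 to 1.74, edgeR adjusted p = 0.0435). This call rests on the lowest counts of the group and ended in 6 of 13 alternatives, with the DESeq2 Wald test (adjusted p = 0.106), an offset for GC content (edgeR adjusted p = 0.0824), no filter on low counts (0.0607), without either fl/fl library, and under an assumed variation; its fold change stayed between 0.92 and 1.09 in log2 throughout. Mtf2, its relative, had 52.7 and 45.4 CPM in fl/fl and 42.0 and 43.0 in KO, with KO lower (log2 fold change -0.21, SE 0.14, 95% interval -0.51 to 0.09, edgeR adjusted p = 0.359). Jarid2, which belongs to the other class of PRC2 assemblies, had 40.1 and 41.6 CPM in fl/fl and 48.6 and 48.0 in KO, with KO higher (log2 fold change 0.24, SE 0.14, 95% interval -0.05 to 0.54, edgeR adjusted p = 0.263). Neither passed the test, and a change of the size seen in Ezh2 lies within the interval of Mtf2. Mtf2 shares 6.93% of its exon length with the antisense gene Tmed5. Tmed5 had 309 and 336 counts in fl/fl and 336 and 418 in KO, and reads of this pair cannot be told apart either.

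The ratios of Phf19 and of Jarid2 to Mtf2 were chosen after the values were seen and are given without a test. Phf19 to Mtf2 counts stood at 0.102 and 0.109 in fl/fl and 0.258 and 0.240 in KO, a 2.36-fold higher mean ratio. Jarid2 to Mtf2 counts stood at 0.761 and 0.917 in fl/fl and 1.16 and 1.12 in KO, 1.36-fold higher. In each case both KO libraries were above both fl/fl libraries.

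**Figure D3:**
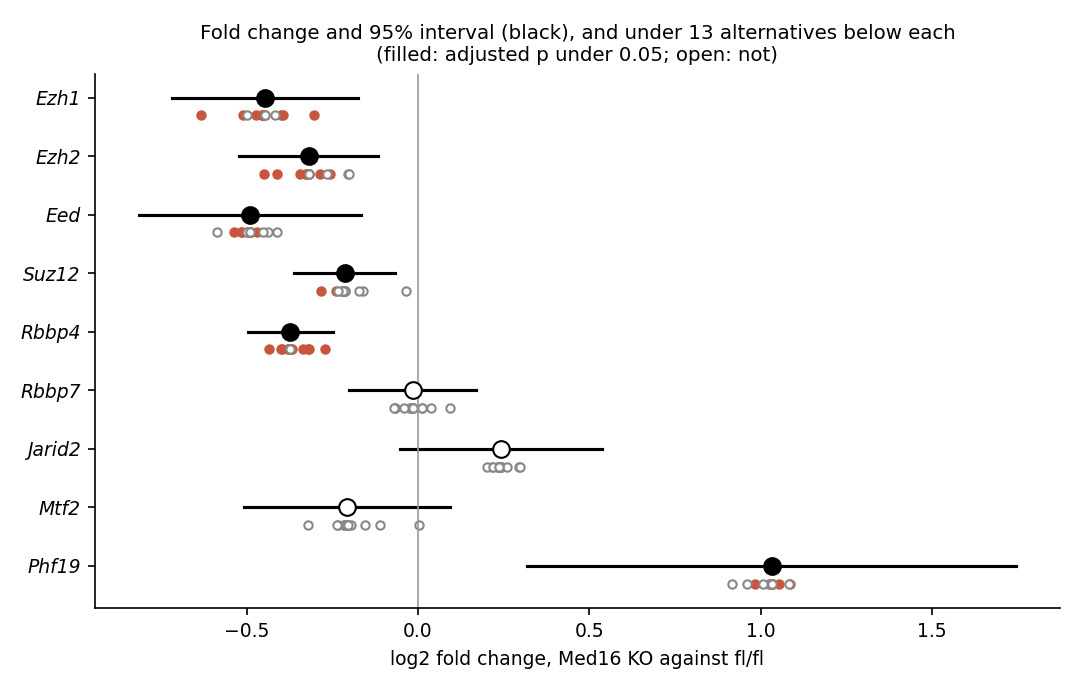
Log2 fold change of each gene, KO against fl/fl (x axis; large point with 95% interval), and below it the values under 13 alternative analyses (filled where the adjusted p is under 0.05, open where not). The Rbbp4 points are filled under all alternatives but 1, while those of Ezh1, Ezh2, Eed, Suz12 and Phf19 are mixed.

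Levels were compared between genes per kb of merged exon length (RPKM). In fl/fl the order was Suz12 (47.6 ± 0.422, SD, n = 2), Rbbp4 (46.3 ± 0.612), Rbbp7 (41.9 ± 1.55), Ezh2 (23.6 ± 2.81), Eed (12.1 ± 1.07), Ezh1 (10.3 ± 0.425), Mtf2 (8.604 ± 0.903), Jarid2 (4.20 ± 0.113) and Phf19 (1.02 ± 0.0631), and no neighbours overlapped. In KO it was Rbbp7 (41.4 ± 1.64), Suz12 (41.1 ± 2.25), Rbbp4 (35.8 ± 1.75), Ezh2 (18.9 ± 1.43), Eed (8.60 ± 0.282), Ezh1 (7.53 ± 1.20), Mtf2 (7.45 ± 0.1199), Jarid2 (4.97 ± 0.0461) and Phf19 (2.09 ± 0.0724). Rbbp7 with Suz12 and Ezh1 with Mtf2 were neighbours that overlapped in KO. With the longest transcript as the length, the order from Eed down was the same in both genotypes, but that of the upper 4 changed: in fl/fl Rbbp4 (86.8 per kb) then led Ezh2 (56.6), Rbbp7 (54.3) and Suz12 (53.9). Under that length Ezh2, Rbbp7 and Suz12 overlapped with their neighbours in fl/fl.

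The genes whose pattern over the 4 libraries lay nearest to that of a methyltransferase were found by Euclidean distance of centred log2 CPM among 7762 genes. For Ezh1 these were Smcr8 (distance 0.0122), Pank3 (0.0171) and Stard9 (0.0197), and for Ezh2 they were Dhx36 (0.0306), Ik (0.0329) and Trim39 (0.0370). With 4 libraries such distances are a description.

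Beyond the 9 genes, the list of other PRC2 accessory subunits had 1 of 6 tested called lower and 0 higher, and the median log2 fold change was -0.36. Beside this and the later list counts stand 8.5% of all tested genes called higher and 9.89% called lower. Among genes with a mean of at least 30 CPM, 21.8% were called lower. A count near these shares shows nothing particular to a list. The called one was Lcorl, a LCOR-family gene whose locus also encodes a PRC2-associated protein, which went from 67.1 ± 8.63 to 48.8 ± 3.02 CPM (SD, n = 2; log2 fold change -0.46, edgeR adjusted p = 0.0234), a call lost with a GC content or length offset and without fl/fl replicate 2. Lcor (-0.54, edgeR adjusted p = 0.0510) and Eloa (-0.26, 0.0671) did not pass. Eloa, the gene of elongin A, is not itself a PRC2 subunit, but it counts among the 6 and in the median. Aebp2, an accessory subunit named after its values were seen, stood at 24.5 and 25.8 CPM in fl/fl and 44.5 and 29.4 in KO, above in both KO libraries but far apart between them (log2 fold change 0.56, edgeR adjusted p = 0.0670); it was called higher in 6 of 13 alternatives, among them the GC content offset (0.75) and without KO replicate 2 (0.81). Lcorl and Aebp2 had opposite signs. Of the 2 demethylases that remove the mark, the X-linked Kdm6a fell from 97.2 ± 6.11 to 65.1 ± 2.64 CPM (log2 fold change -0.58, edgeR adjusted p = 0.00116), while Kdm6b stood at 79.9 and 83.1 CPM on average. No comparison here takes the sex of the mice into account. Both enzymes that write the mark and 1 of the 2 that erase it were called lower.

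PRC1, which ubiquitinates H2A at Polycomb-bound genes, was measured by 12 core and canonical subunits, 2 called higher and 0 lower, and the median log2 fold change was 0.20. Of all tested genes 8.5% were called higher and 9.89% lower. Phc2, a polyhomeotic subunit, was called higher, going from 38.8 ± 2.58 to 58.4 ± 10.5 CPM (SD, n = 2; log2 fold change 0.59, edgeR adjusted p = 0.0125). Its call ended with the GC content offset and without fl/fl replicate 2. Variant PRC1 had 1 of 15 called lower, Pcgf5 (log2 fold change -0.51, edgeR adjusted p = 0.0103, lost with the GC content offset and without either fl/fl library), and 0 higher. In the PR-DUB group, whose core removes that ubiquitin, 4 of 10 were lower and 1 higher. Ogt, the enzyme that adds O-GlcNAc to proteins, went from 279 ± 5.94 to 172 ± 10.2 CPM (-0.70, edgeR adjusted p = 3.4e-06). Kdm1b (-0.48) and Hcfc1 (-0.20) were lower too, as were Asxl2 (-0.70), and Foxk1 was higher (0.65), the last 2 being named after their values were seen; the Foxk1 call ended with the GC content offset and without fl/fl replicate 1, and the Hcfc1 call ended without fl/fl replicate 1, with library sizes alone and with a length offset.

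The complexes that share RBBP4 and RBBP7 had calls in both directions, where 8.5% of all tested genes were called higher and 9.89% lower. In NuRD, a deacetylase and remodelling complex, 3 of 12 were higher and 1 lower: Mbd3 (log2 fold change 0.60), its methyl-CpG-binding-domain subunit, the remodeller Chd4 (0.24) and Cdk2ap1 (0.42) rose, and Mbd2 (-0.29) fell, Cdk2ap1 and Mbd2 being named after their values were seen. The calls of Mbd3, Chd4 and Cdk2ap1 ended with the GC content offset and without fl/fl replicate 2, and those of Chd4 and Cdk2ap1 also without fl/fl replicate 1, so that 0 of the 12 were higher under that offset. The Mbd2 call ended with library sizes alone and without fl/fl replicate 2. In SIN3, the deacetylase scaffold Sin3b (0.67) and Suds3 (0.32) were higher and Arid4a (-0.65) lower, of 12 tested; the calls of Sin3b and Suds3 ended without fl/fl replicate 2, and that of Suds3 also without fl/fl replicate 1, with the DESeq2 Wald test and with the GC content offset. Among 8 tested CAF-1, HAT1, MuvB and NURF partners 2 were lower and 0 higher, both of them MuvB subunits of the cell-cycle gene regulator: Lin52 dropped from 15.3 ± 0.360 to 5.32 ± 0.0287 CPM (SD, n = 2; log2 fold change -1.52, edgeR adjusted p = 0.00194), and Lin9 had a log2 fold change of -0.81 that lost its call without fl/fl replicate 2. The CAF-1 subunit Chaf1a, at 0.10, did not pass.

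Other histone chaperones had 5 of 16 called lower and 0 higher. The share called lower was 9.89% of all tested genes and 21.8% of those with a mean of at least 30 CPM. Anp32e, which removes H2A.Z, went from 386 to 251 CPM (log2 fold change -0.62, edgeR adjusted p = 2.3e-06) and Ubn2, of the HIRA complex, from 69.9 to 41.1 CPM (-0.76). Supt16 (-0.44) of FACT, Atrx (-0.39) and Asf1b (-0.31) were the others, named after their values were seen. The Atrx call ended with the GC content and length offsets and without fl/fl replicate 2, and the Asf1b call without either fl/fl library; with the GC content offset 2 chaperones of the list were called higher. In the DNA methylation list 1 of 7 was lower, Uhrf1 (-0.29), which recruits the maintenance methyltransferase, and Dnmt1 itself was at -0.17 (edgeR adjusted p = 0.0578). Of 22 S phase and proliferation genes 14 were lower and 0 higher, with a median of -0.29: Mki67 went from 4655 to 2728 CPM and Top2a from 1083 to 705. Most of this list was lower in KO, as were Ezh1, Ezh2, Eed, Suz12 and Rbbp4, and its part in those results was not tested.

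**Figure D4:**
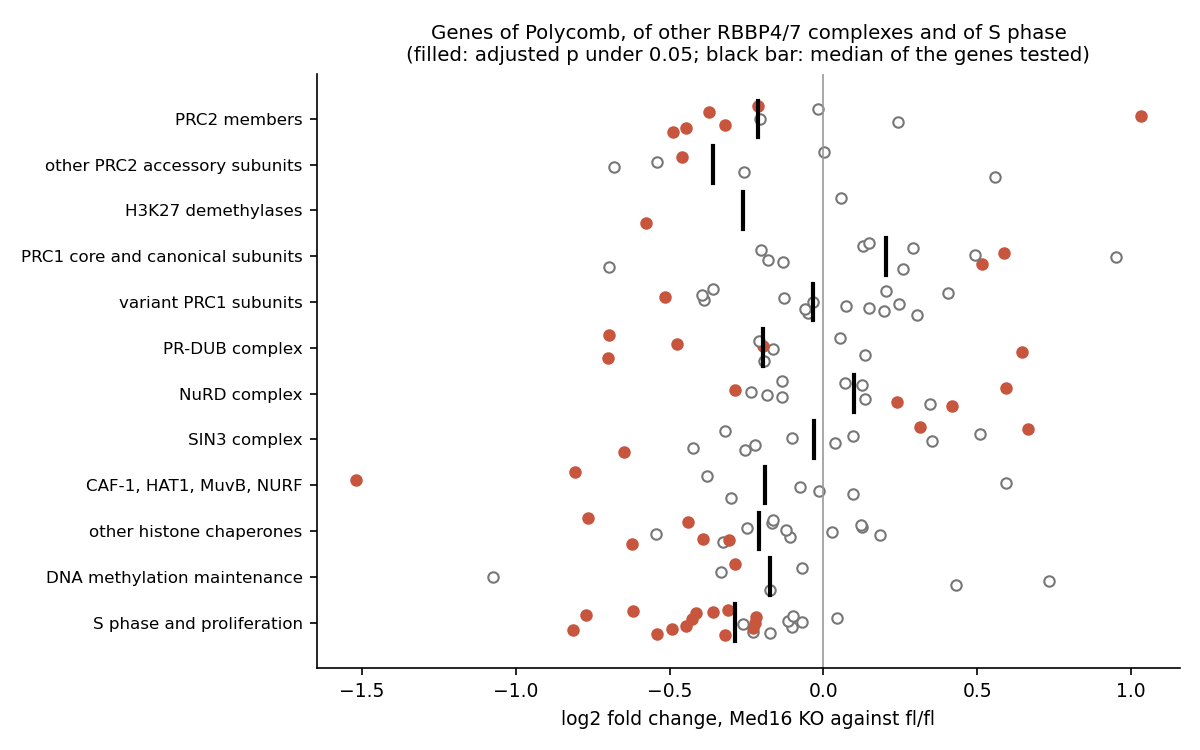
Log2 fold change, KO against fl/fl (x axis), of each tested gene by list (filled, adjusted p under 0.05; open, not; black bar, median of the genes tested). The medians are -0.21 for the PRC2 members, 0.20 for PRC1 core subunits and -0.29 for S phase genes.

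Textbook PRC2 targets, such as Hox and lineage-restricted developmental genes, were nearly silent in all libraries. Of 48 such genes 32 had no count in any library, and 2, Hoxb4 and Hoxa9, passed the filter on low counts. Their summed counts were 48 and 52 in fl/fl and 41 and 34 in KO, or 6.65 and 7.38 per 1000000 in fl/fl and 5.90 and 5.04 in KO. The exact binomial 95% intervals (4.90 to 8.82 and 5.51 to 9.67 in fl/fl, 4.23 to 8.004 and 3.49 to 7.04 in KO) all overlap; they cover counting error only. The summed level was lower in both KO libraries. Hoxa7 alone gave 21 of the 41 counts of KO library 1 and 0 of those of KO library 2, so the sum rests on few genes and reads. Over all genes, fewer had any count in KO (16892 and 16479) than in fl/fl (18947 and 19016). The part of that difference in the target sum was not tested. A library with no count of a gene allows up to 0.421 to 0.441 CPM (3 counts). Hoxb4 (log2 fold change -1.14) and Hoxa9 (-0.21) did not pass the test.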

How the data were processed

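The deposited values are raw counts of reads per gene, 1 file per library, made by the authors. HISAT2 2.1.0, HTSeq 0.12.4 and the genome build GRCm39 are named in the submitters' processing notes; those notes state neither the strand setting nor the annotation release. The 5 summary rows that name no gene were left out; reads in no feature made up 35.8 to 36.7% of the total. Genes passing filterByExpr (13052 of 56691) were tested with edgeR 4.0.16 (R 4.3.3; TMM scaling, quasi-likelihood test, 2 against 2 libraries, Benjamini-Hochberg adjustment over all genes tested, threshold 0.05). CPM in the text use the TMM-scaled library sizes; log2 fold changes are KO against fl/fl. The fit had 2 residual degrees of freedom and a common biological coefficient of variation of 0.125, so calls lean on the spread shared across genes. Replicates differed by more than counting noise (chi-square per degree of freedom 2.73 in fl/fl and 6.63 in KO).

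Lengths, GC content and antisense overlaps came from GENCODE M21 (GRCm38), matched by identifier for 98.4% of tested genes. Alternatives were DESeq2 1.42.0 size factors and Wald test, library size only, other filters, GC and length offsets, a replicate block and each library left out. Named genes were the 9 members, Med16, and from each other list the 2 genes with the smallest p and the most abundant one, plus the 3 nearest in pattern to Ezh1 and Ezh2; others are marked in the text. The members and lists were chosen with earlier results of these data known. In the variant PRC1 list a mistaken symbol was replaced by Csnk2b after list counts had been seen. An assumed coefficient of variation of 0.2, longest-transcript lengths, the ratios to Mtf2, the E2F core and the background at 30 CPM were added after seeing the data. Some genes that the naming rule picked are not reported here.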

Additional observations from a re-analysis of the deposited data

Results flagged for a closer look

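The share of reads that did not align, which no comparison above uses, was 2.69% and 3.27% in the 2 KO libraries, above the 1.05% and 0.826% of the fl/fl libraries.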

How the results depend on the processing

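With library sizes alone 2 members were called lower, and log2 fold changes were -0.27 for Ezh2, -0.44 for Eed, -0.16 for Suz12 and 0.038 for Rbbp7; the share of calls that were higher went from 46.2% to 56.4%. With the DESeq2 Wald test 3 members were lower and 0 higher (Eed -0.50, Suz12 -0.22, Phf19 1.03 not called). Without a filter on low counts Phf19 was at 1.01 and not called, leaving 0 members higher. With the GC content offset 2 members were lower and 0 higher (Ezh2 -0.20, Eed -0.45, Suz12 -0.035, Rbbp7 0.093, Mtf2 0.0042 and Phf19 0.92, none called), and 4 pathway genes were higher instead of 8; Kdm6b was at -0.18 and Chaf1a at -0.00022. At an assumed coefficient of variation of 0.2, chosen after seeing the data, 331 genes were called higher and 289 lower, 0 members either way and 0 pathway genes higher and 1 lower, with Ezh1 -0.45, Ezh2 -0.32, Eed -0.49, Suz12 -0.21, Rbbp4 -0.37 and Phf19 1.03. The cause of these differences was not tested.

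Leaving out 1 library, with the lone library assumed to vary like the other genotype, gave 454 to 1839 genes higher and 704 to 2172 lower, 0 to 1 members higher and 1 to 5 lower, and 1 to 15 pathway genes higher. Members ranged from -0.63 to -0.30 (Ezh1), -0.45 to -0.20 (Ezh2), -0.59 to -0.41 (Eed), -0.28 to -0.17 (Suz12), -0.070 to 0.013 (Rbbp7) and 0.96 to 1.08 (Phf19). Genes that were not called changed sign: Kdm6b ranged from -0.032 to 0.13, Chaf1a from -0.014 to 0.18, Hoxa9 from -0.62 to 0.091 and Myb from -0.18 to 0.20. A replicate block gave 1268 genes higher and 1499 lower and changed no member's call. Deviations from the genotype mean in fl/fl library 1 and KO library 1 had a correlation of -0.0078 over genes. With 2 libraries per genotype this cannot decide whether equal replicate numbers pair the samples. Phf19, at 34 to 77 counts, is limited by depth.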
